A study of Mus musculus with 18 samples.

Results

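The genes described here are the mitochondrial ribosomal protein genes of mouse kidney cortex. They were taken as every row of the deposited table whose gene name starts with Mrpl or Mrps followed by a digit, which gave 77 of 24062 genes. RNA was sequenced from C57Bl/6 mice of 2 genotypes: Klf15PTKO mice (PTKO), in which the transcription factor Klf15 is deleted in the proximal tubule, and Klf15fl/fl mice (fl/fl), which carry the floxed alleles that PTKO mice carry too. Each genotype was given the vehicle DMSO, aristolochic acid I for 2 weeks (AA 2wk), or that course plus 2 weeks of remodeling (AA 4wk), which makes 6 groups of 3 libraries. Aristolochic acid I is a plant toxin that injures the proximal tubule. The sources used here do not give the Cre line or the Klf15 exons removed, and no group has Cre with intact Klf15, so deletion and Cre cannot be told apart. No age or week is given for the DMSO libraries, and the DMSO group of a genotype serves as control for both courses.

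The mitochondrial ribosome translates the few proteins encoded by mitochondrial DNA, all of them subunits of the oxidative phosphorylation complexes. Its ribosomal RNAs come from mitochondrial DNA, whereas all of its proteins are encoded in the nucleus, made in the cytosol and imported. Some of these proteins descend from the bacterial ribosome, and others exist in mitochondria only. Proximal tubule cells are rich in mitochondria and depend on oxidative metabolism for transport.

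Of the 77 genes, 50 encode proteins of the large subunit and 26 proteins of the small subunit. Mrps30 and Mrps18a are named for the small subunit and sit in the large one. Mrps36 is no ribosomal protein: its product belongs to the 2-oxoglutarate dehydrogenase complex. Among the 76 ribosomal proteins, 46 have a bacterial counterpart and 30 are specific to mitochondria. Each of the 77 names matched 1 protein-coding gene of GENCODE M21 (GRCm38, the assembly that mm10 denotes), on 17 chromosomes, with 10 genes on chromosome 11.

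Promoters are printed for the members on which the results turn: Mrpl50 and Mrpl12, which had the largest falls with AA, and Mrpl33 and Mrpl52, which rose in all 4 AA effects. Each window runs 5′ to 3′ on the gene's strand from 250 bases before to 50 bases after the RefSeq start (GRCm38.p6), and capitals mark motif matches on either strand. The windows are chr4:49521034-49521333 (minus strand) for Mrpl50, chr11:120484387-120484686 (plus strand) for Mrpl12, chr5:31613701-31614000 (plus strand) for Mrpl33 and chr14:54426659-54426958 (plus strand) for Mrpl52.
Mrpl50: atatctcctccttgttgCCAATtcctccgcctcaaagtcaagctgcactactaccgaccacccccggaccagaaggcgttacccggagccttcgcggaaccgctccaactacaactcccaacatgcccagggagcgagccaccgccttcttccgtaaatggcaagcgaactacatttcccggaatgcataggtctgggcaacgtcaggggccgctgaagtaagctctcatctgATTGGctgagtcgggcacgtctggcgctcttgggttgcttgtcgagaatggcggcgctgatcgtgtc
Mrpl12: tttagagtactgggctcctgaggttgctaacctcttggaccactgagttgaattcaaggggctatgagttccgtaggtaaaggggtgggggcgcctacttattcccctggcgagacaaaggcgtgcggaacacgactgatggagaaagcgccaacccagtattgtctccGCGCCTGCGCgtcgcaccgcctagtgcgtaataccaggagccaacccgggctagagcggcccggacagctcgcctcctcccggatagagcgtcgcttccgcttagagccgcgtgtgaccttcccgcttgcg
Mrpl33: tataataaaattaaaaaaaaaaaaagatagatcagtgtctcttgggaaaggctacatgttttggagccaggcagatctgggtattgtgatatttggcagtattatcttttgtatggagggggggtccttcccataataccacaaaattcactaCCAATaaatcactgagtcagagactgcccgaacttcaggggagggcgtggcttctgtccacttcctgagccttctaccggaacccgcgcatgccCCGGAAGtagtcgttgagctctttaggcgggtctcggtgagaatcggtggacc
Mrpl52: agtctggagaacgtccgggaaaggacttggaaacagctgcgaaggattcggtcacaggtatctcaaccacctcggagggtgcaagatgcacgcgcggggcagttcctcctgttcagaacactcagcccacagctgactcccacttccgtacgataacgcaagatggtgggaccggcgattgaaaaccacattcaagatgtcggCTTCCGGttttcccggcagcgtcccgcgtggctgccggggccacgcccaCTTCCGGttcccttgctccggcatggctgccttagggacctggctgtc

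In these windows Mrpl50 held 2 matches to CCAAT, the NFY motif. Mrpl12 held 1 match to the motif of nuclear respiratory factor 1 (NRF1), GCGCA and GCGC with any 1 base between them. Mrpl33 held 1 match to CCGGAAG, a core bound by ETS factors such as GABPA, and 1 CCAAT. Mrpl52 held 2 ETS cores. RefSeq windows were found for 68 of the 77 genes, 74 windows in all, and their motif shares were set beside those of 13009 windows of tested genes. The ETS core stood in 33.8% of member windows, against 16% of tested-gene windows. The NRF1 motif stood in 17.6%, against 9.12%, and the YY1 motif AANATGGCG in 13.5%, against 4.59%. Shares were closer for the E-box CACGTG (9.46% against 9.65%), CCAAT (40.5% against 36.8%), TGACGTCA (2.7% against 2.79%), TATAAA (6.76% against 7.63%) and the SP motif GGGCGG (52.7% against 60.5%). Median GC content was 58.5% in member windows and 60.3% in tested-gene windows. All motifs were searched on both strands, and a match is a description of letters, not of a bound site.

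Whole reads could be recovered from the steps of the RPKM values, at 11 to 21.9 M reads per library. The labels do not say whether the libraries of a group came from separate mice, so p-values measure only the spread between these libraries. Klf15 was at 28.5, 31.9 and 32.6 RPKM in PTKO DMSO, against 53.0, 61.3 and 65.5 RPKM in fl/fl DMSO, and was lower on average in PTKO at both AA stages, but none of these genotype differences was called (adjusted p = 0.595, 0.763 and 0.812). Klf15 was also called lower with AA, by log2 differences of -0.76 and -1.65 at AA 2wk and AA 4wk in PTKO. In fl/fl these were -1.17 and -1.95, and its mean at AA 4wk was 15.0 RPKM, below the 31.0 RPKM of PTKO DMSO. All 10 proximal tubule markers averaged at least 1 RPKM in every group. The summed RPKM of these markers was 887 to 3658 in the AA libraries, against 4631 to 5444 in DMSO. Slc34a1 weighs most in it, at 2554 RPKM of a mean sum of 5119 in fl/fl DMSO. Not all markers fell. Slc5a2 averaged 163 RPKM at AA 2wk and 157 at AA 4wk in fl/fl, against 151 in DMSO, and 214 and 101 in PTKO, against 164. Slc5a12 averaged 118 and 99.1 in fl/fl, against 135, and 134 and 70.5 in PTKO, against 111. The other marker means were lower in every AA group. That of 8 macrophage markers was 373 to 4197 in AA libraries, against 57.0 to 108 in DMSO. The AA 2wk library numbered 3 of each genotype stood apart, with proximal tubule sums of 3658 in PTKO and 3045 in fl/fl, against 1468 to 1754 in the other AA 2wk libraries. In whole cortex, fewer cells of a type and less RNA per cell cannot be told apart.

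In vehicle-treated cortex the members ranged widely in level. The median over all 77 genes was 33.4 RPKM in PTKO DMSO and 34.3 RPKM in fl/fl DMSO, with quartiles of 20.4 and 54.2 RPKM in fl/fl DMSO. Large-subunit genes had a median of 35 RPKM there and small-subunit genes one of 30.6 RPKM. By mean over all 18 libraries, DMSO and AA together, Mrpl12, the L7/L12 protein of the ribosomal stalk that receives translation factors, stood highest at 139 RPKM. Next came Mrpl42 at 124 RPKM, Mrps21 at 101 RPKM, Mrpl20 at 92.9 RPKM and Mrps6 at 86.9 RPKM. The first 4 also led in this order in fl/fl DMSO, at 191, 137, 122 and 107 RPKM, whereas Mrps6 was at 60.5 RPKM there, below Mrpl30 at 78.6 RPKM, Mrpl34 at 72.9 RPKM and others. At the low end stood Mrpl23 at 0.165 RPKM, Mrps33 at 3.46 RPKM, Mrpl19 at 5.02 RPKM, Mrps25 at 5.64 RPKM and Mrpl1 at 6.47 RPKM. These are levels per length, so they can be ordered, but they rest on the length the authors used for each gene.

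Mrpl23, the L23 protein beside the peptide exit tunnel, had 0 to 4 reads per library. It failed the filter of 1 RPKM in 3 libraries, so 76 of the 77 members were tested. Whether its low value reflects expression or the counting was not tested.

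**Figure D1:**
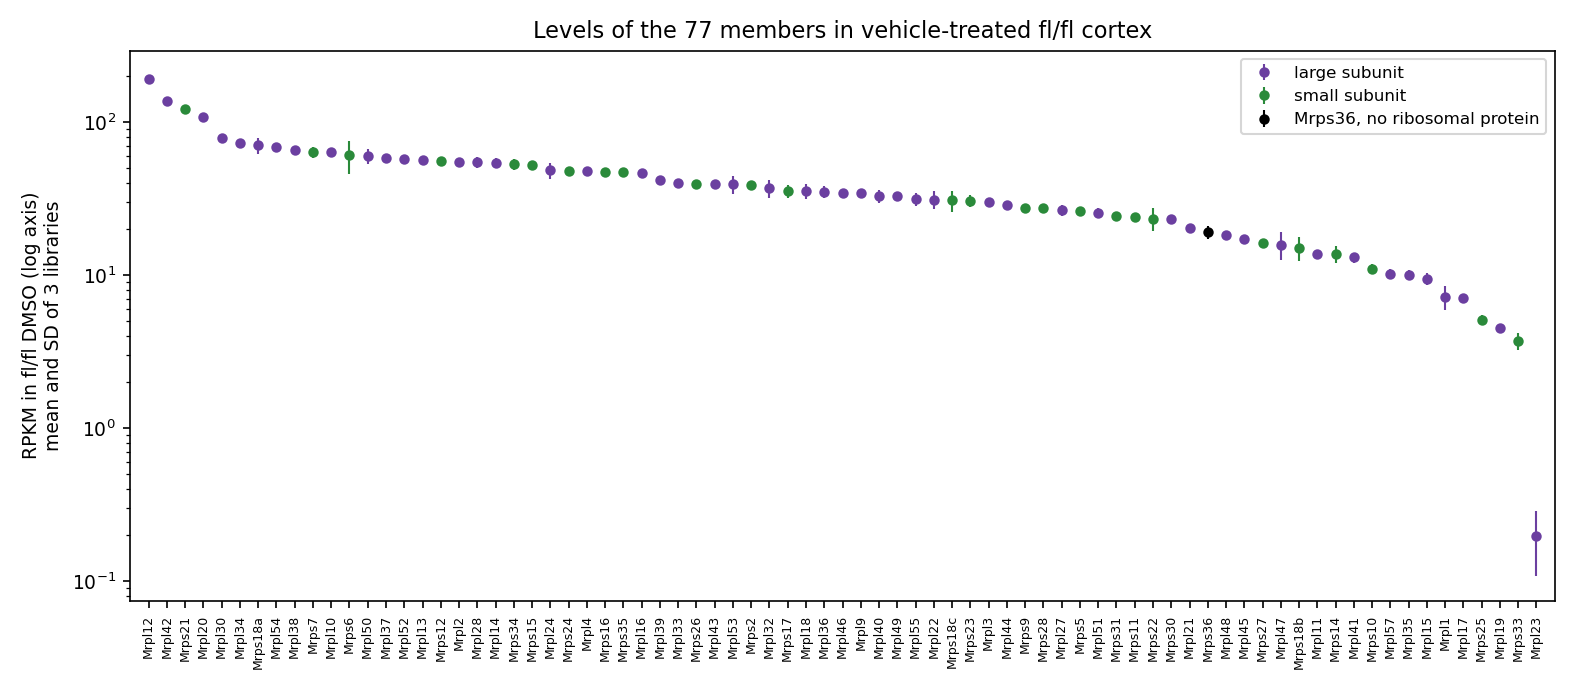
RPKM of the 77 members in fl/fl DMSO cortex on a log axis, ordered by level, with points as means and bars as SD of 3 libraries, coloured by subunit. Apart from Mrpl23, at the bottom, the levels form a gradual slope up to Mrpl12.

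With AA the members' median lay below that of all genes in both genotypes and at both stages. The median log2 difference of the 76 tested members from DMSO was -0.12 at AA 2wk and -0.31 at AA 4wk in PTKO, and -0.03 at AA 2wk and -0.17 at AA 4wk in fl/fl. The medians over all 13624 tested genes were 0.29 and 0.40 in PTKO and 0.33 and 0.35 in fl/fl. Below the all-gene median lay 71 members at AA 2wk and 73 at AA 4wk in PTKO, and 70 and 73 in fl/fl. All log2 differences are on the log2(RPKM + 1) scale, which understates changes of low genes.

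Counts of called members (adjusted p under 0.05 over all genes, limma) leaned downward, while those of all genes leaned upward. At AA 2wk in PTKO, 3 members were higher and 21 lower, against 45.9% of all genes higher and 14.3% lower. At AA 2wk in fl/fl, 10 were higher and 16 lower, where 50.4% of all genes were higher and 12.2% lower. At AA 4wk in PTKO, 2 were higher and 48 lower, beside 55% and 17.3% of all genes. At AA 4wk in fl/fl, 3 were higher and 27 lower, beside 51.9% and 14.3%. Leaving out fl/fl DMSO number 3, fl/fl AA 2wk number 1 or fl/fl AA 2wk number 2 took the members lower at AA 2wk in fl/fl to 9, 10 and 9. Without PTKO AA 2wk number 3, 7 members were higher at AA 2wk in PTKO and 5 at AA 4wk in fl/fl.

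The direction depends in part on the scale. Dividing by median-of-ratios size factors moved the all-gene medians of the 4 effects to between -0.01 and 0.00. Members lower were then 59 and 71 of 76 in PTKO at AA 2wk and AA 4wk, and 56 and 66 in fl/fl, and 1 or 2 were higher in each effect. With quantile normalization 35 and 62 members were lower in PTKO, and 36 and 58 in fl/fl, with 2 to 4 higher. Lower calls over all 13624 genes grew as well. As deposited they numbered 1947 and 2351 in PTKO and 1660 and 1954 in fl/fl. With size factors they numbered 3717 and 4616 in PTKO and 3776 and 4203 in fl/fl, and with quantiles 3768 and 4967, and 4051 and 4600. Of calls over all genes, 76.3% and 76.1% were upward in PTKO and 80.5% and 78.4% in fl/fl as deposited. With size factors these shares were 49.5% and 49.3% in PTKO and 50.2% and 49.3% in fl/fl, and with quantiles 46.7% and 44.5% in PTKO and 44.8% and 43.8% in fl/fl. More members were thus called lower than higher on all 3 scales.

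**Figure D2:**
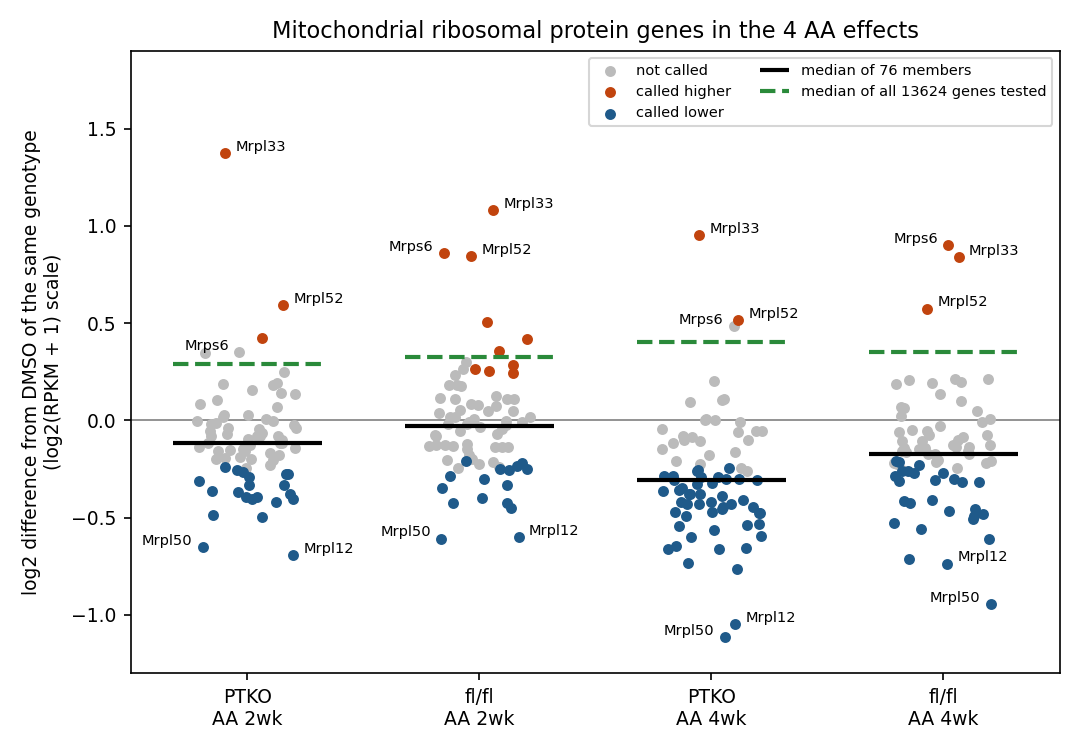
Log2 difference from DMSO of the same genotype for the 76 tested members in the 4 AA effects, 1 dot per member, coloured by call, with the members' median as a black line and the median of all 13624 tested genes as a dashed green line. The black line lies below the green one in every effect, Mrpl33, Mrpl52 and Mrps6 stand near the upper end, and Mrpl50 and Mrpl12 at the lower end.

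In summed RPKM of the members the libraries themselves show the same order. The members' values summed to 3075 to 3184 RPKM in PTKO DMSO, 2768 to 2966 RPKM in PTKO AA 2wk and 2363 to 2684 RPKM in PTKO AA 4wk. The fl/fl sums were 3028 to 3196 RPKM in DMSO, 2851 to 3342 RPKM in AA 2wk and 2611 to 2887 RPKM in AA 4wk. All AA 4wk libraries lay below all DMSO libraries of their genotype. At AA 2wk all PTKO libraries lay below DMSO too, whereas fl/fl AA 2wk overlapped DMSO, its highest sum being library 3. Shares of all summed RPKM gave another order. The members held 0.661% to 0.678% of it in PTKO DMSO, 0.650% to 0.700% in PTKO AA 2wk and 0.570% to 0.628% in PTKO AA 4wk. For fl/fl the DMSO share was 0.659% to 0.678%, that of AA 2wk 0.669% to 0.769% and that of AA 4wk 0.611% to 0.660%. By share, only PTKO AA 4wk lay wholly below its DMSO group. The libraries with more proximal tubule marker RNA at AA 2wk (numbered 3) had member medians of -0.15 in PTKO and 0.07 in fl/fl relative to the fl/fl DMSO mean, against -0.12, -0.07, -0.11 and -0.11 in the other 4. The part of tubule and macrophage RNA in the members' shift was not tested.

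Taken gene by gene, all 3 AA libraries lay below all 3 DMSO libraries for 31 members at AA 2wk and 49 at AA 4wk in PTKO, beside 16% and 19.9% of all genes. In fl/fl this held for 19 members at AA 2wk and 34 at AA 4wk, beside 12.3% and 16.6%. All 3 AA libraries lay above DMSO for 6 and 3 members in PTKO (46.9% and 60.5% of all genes), and for 11 and 9 in fl/fl (51% and 55.6%).

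**Figure D3:**
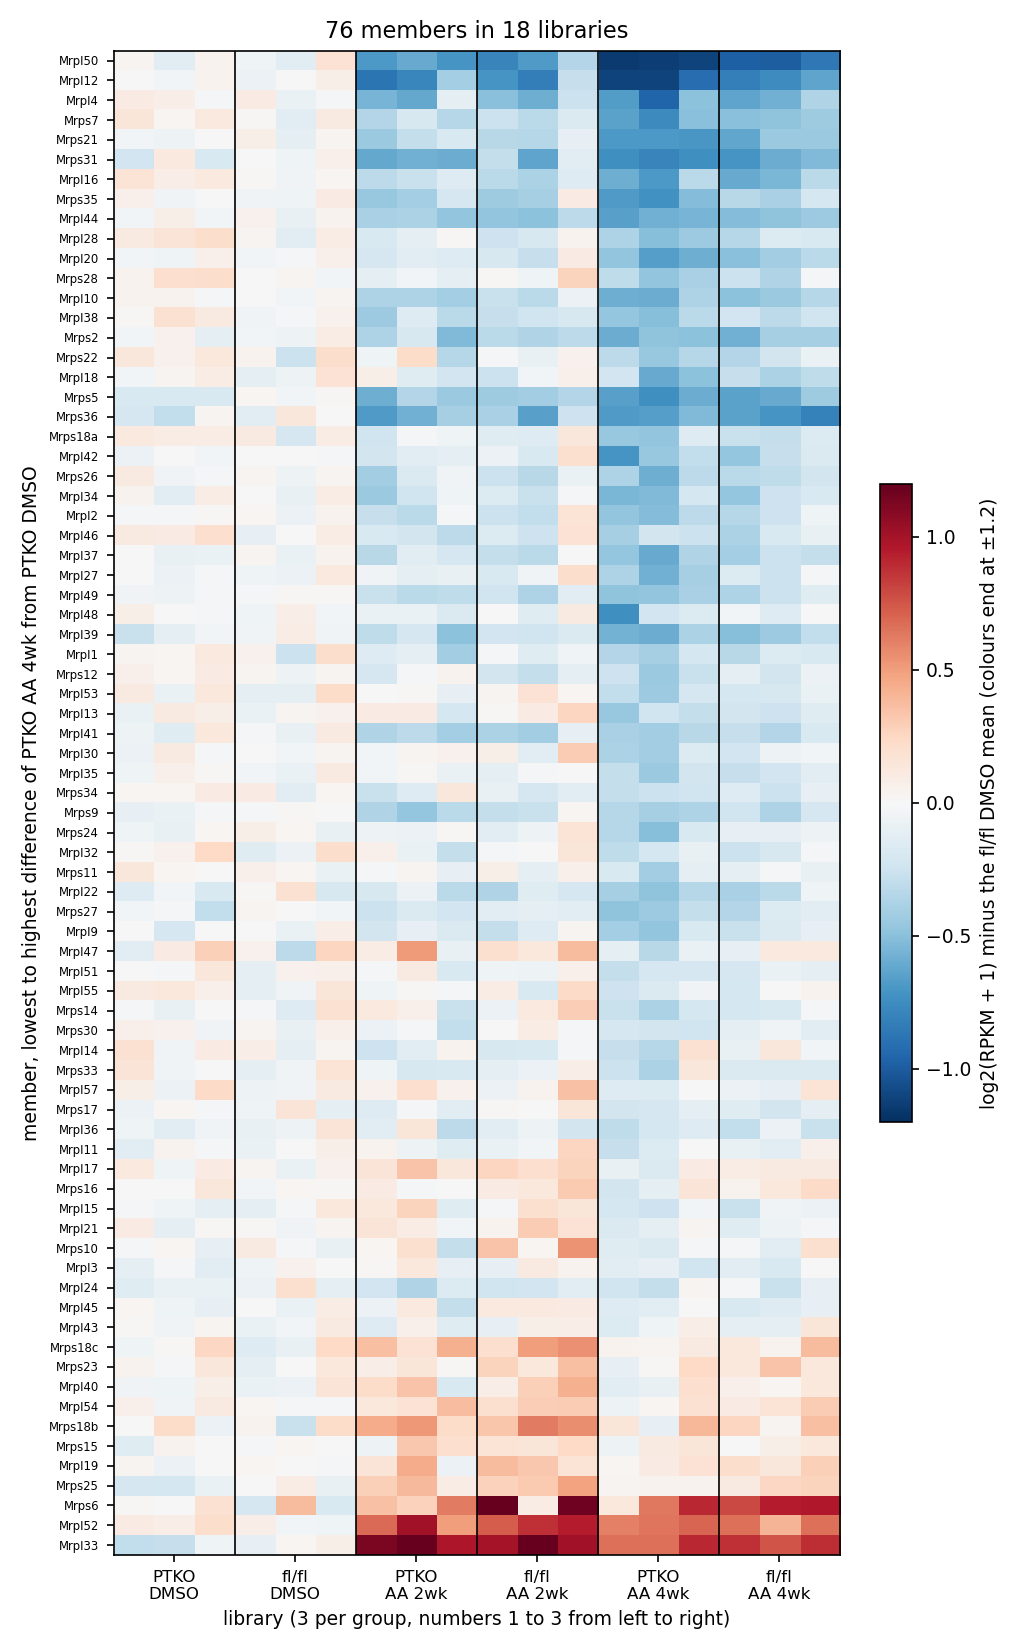
Log2(RPKM + 1) of the 76 tested members in the 18 libraries, minus the fl/fl DMSO mean of each gene, with red above and blue below it. The bluest columns are PTKO AA 4wk libraries 1 and 2, with member medians of -0.30 and -0.41, while the AA 2wk and fl/fl AA 4wk columns overlap in shade, and Mrpl33 and Mrpl52 stand out in red in all AA columns.

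A group of 15 members was lower in all 4 AA effects, beside 9.87% of all genes, where the 2 effects of a genotype share their DMSO libraries. It holds Mrpl4, Mrpl10, Mrpl12, Mrpl16, Mrpl38, Mrpl41, Mrpl44, Mrpl49 and Mrpl50 of the large subunit, Mrps2, Mrps5, Mrps7, Mrps21 and Mrps31 of the small subunit, and Mrps36. All 15 were also lower in all 4 effects with size factors, and 14 with quantile normalization.

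Mrpl50, a mitochondria-specific protein of the large subunit, fell most in 3 of the 4 effects, and Mrpl12 fell most at AA 2wk in PTKO. In PTKO, Mrpl50 was at 60.6, 54.3 and 61.2 RPKM in DMSO, 36.3, 38.7 and 35.9 RPKM at AA 2wk, and 26.2, 26.5 and 26.9 RPKM at AA 4wk. The fl/fl libraries gave 57.0, 54.4 and 67.2 RPKM in DMSO, 33.8, 36.7 and 46.2 RPKM at AA 2wk, and 29.5, 29.3 and 32.2 RPKM at AA 4wk. All AA libraries lay below all DMSO libraries, and within each genotype all AA 4wk libraries lay below all AA 2wk ones. The log2 differences from DMSO were -0.65 ± 0.10 (SE, adjusted p = 0.00012) and -1.11 ± 0.10 (adjusted p = 6.42e-07) at AA 2wk and AA 4wk in PTKO, and -0.61 ± 0.10 (adjusted p = 0.00019) and -0.95 ± 0.10 (adjusted p = 3.32e-06) in fl/fl.

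Mrpl12 builds the flexible stalk that recruits elongation factors and is also known to bind the mitochondrial RNA polymerase. PTKO libraries had 191, 187 and 197 RPKM in DMSO, 104, 111 and 144 RPKM at AA 2wk, and 88.1, 87.7 and 101 RPKM at AA 4wk. The fl/fl libraries had 182, 191 and 201 RPKM in DMSO, 117, 107 and 158 RPKM at AA 2wk, and 108, 113 and 123 RPKM at AA 4wk. No AA library reached any DMSO library, and the AA 2wk libraries numbered 3 were the highest of their groups. For AA 2wk and AA 4wk its PTKO log2 differences came to -0.69 ± 0.14 (adjusted p = 0.000641) and -1.05 ± 0.14 (adjusted p = 1.04e-05), and -0.60 ± 0.14 (adjusted p = 0.00164) and -0.74 ± 0.14 (adjusted p = 0.00028) in fl/fl. A lincRNA on the opposite strand covers 13.1% of its exon bases, and whether the counting used strand is not stated. Mrpl10, the protein that anchors the stalk to the ribosome, averaged 64.3 ± 1.42 RPKM in PTKO DMSO, 48.4 ± 0.732 RPKM at AA 2wk and 44.0 ± 4.06 RPKM at AA 4wk (SD, n = 3 each). In fl/fl its means were 63.4 ± 1.44, 54.4 ± 5.17 and 47.0 ± 2.50 RPKM at the same stages, so both stalk genes were lower with AA.

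**Figure D4:**
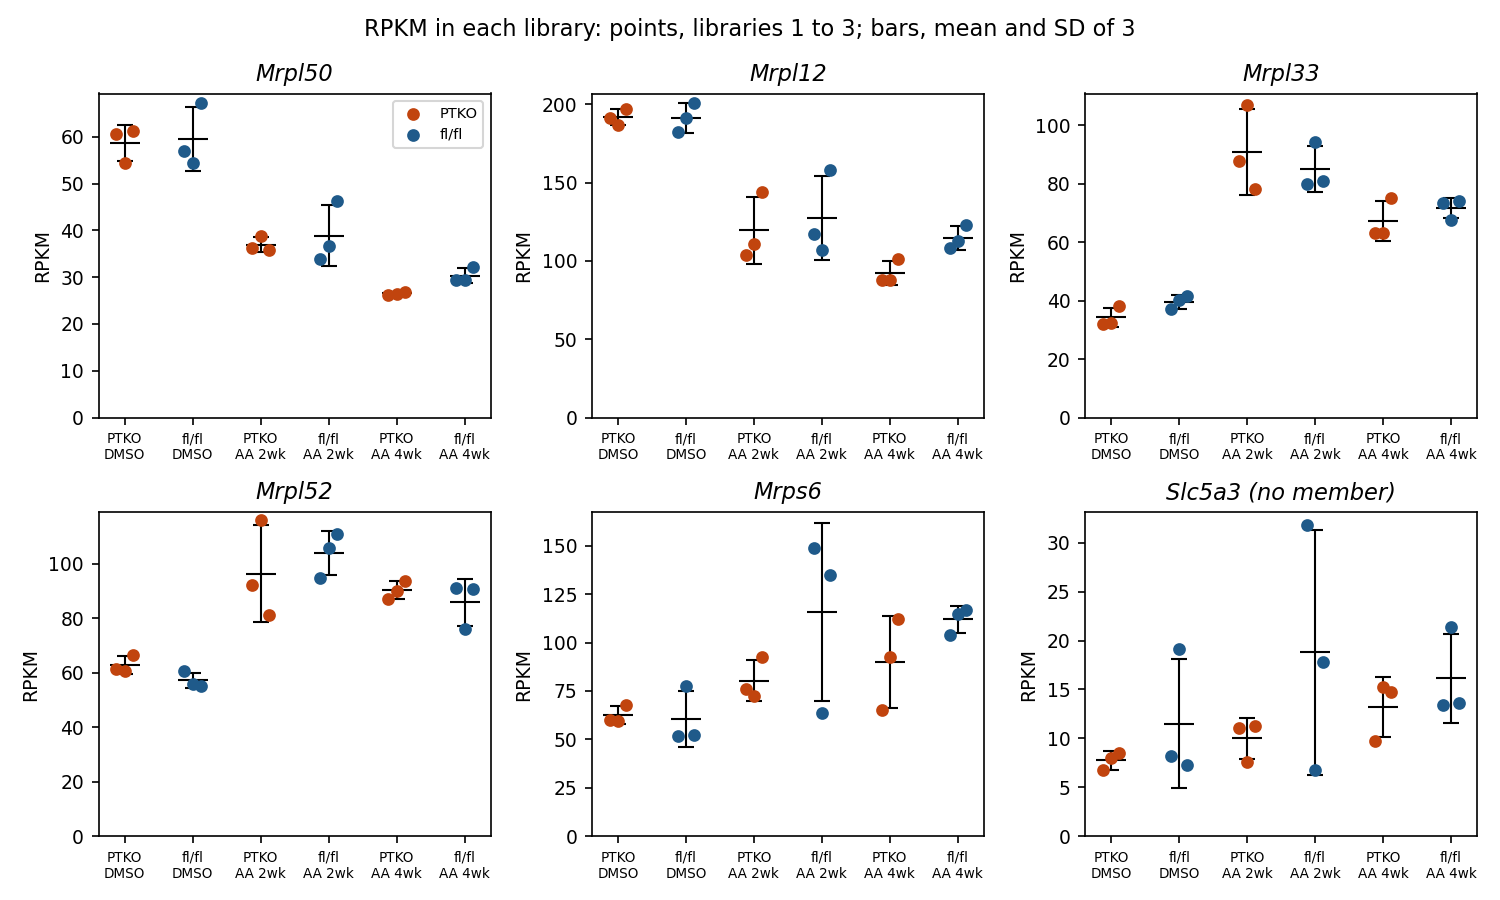
RPKM in each library of Mrpl50, Mrpl12, Mrpl33, Mrpl52 and Mrps6, and of Slc5a3, which is no member and shares exon bases with Mrps6, by group, with mean and SD of 3 libraries. Mrpl50 and Mrpl12 step down with AA, Mrpl33 and Mrpl52 step up, and Mrps6 has 1 fl/fl AA 2wk library at 63.5 RPKM, within the DMSO range.

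Mrpl4, the L4 protein that lines the peptide exit tunnel, was at 50.8, 50.1 and 46.9 RPKM in PTKO DMSO, 31.9, 30.5 and 43.5 RPKM at AA 2wk, and 29.3, 23.8 and 33.4 RPKM at AA 4wk. For fl/fl the values were 50.6, 44.8 and 46.7 RPKM in DMSO, 33.1, 31.2 and 39.3 RPKM at AA 2wk, and 30.1, 31.3 and 36.6 RPKM at AA 4wk. All AA libraries lay below DMSO, with log2 differences of -0.49 ± 0.14 (adjusted p = 0.00748) at AA 2wk in PTKO, -0.76 ± 0.14 (adjusted p = 0.000184) at AA 4wk in PTKO and -0.45 ± 0.14 (adjusted p = 0.0111) at AA 2wk in fl/fl. Mrpl44, which carries a ribonuclease III fold, had a narrower spread. It was at 28.1, 30.2 and 28.0 RPKM in PTKO DMSO, 21.7, 21.8 and 20.4 RPKM at AA 2wk, and 17.9, 18.9 and 19.2 RPKM at AA 4wk. The fl/fl libraries gave 29.8, 26.9 and 29.5 RPKM in DMSO, 20.4, 20.1 and 22.9 RPKM at AA 2wk, and 19.7, 20.2 and 20.9 RPKM at AA 4wk. Its AA 2wk differences were nearly equal in the genotypes, at -0.42 ± 0.07 (adjusted p = 0.000162) in PTKO and -0.43 ± 0.07 (adjusted p = 0.000128) in fl/fl.

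Of the small subunit, Mrps7, the S7 protein that organises the head, was at 70.6, 64.8 and 69.0 RPKM in PTKO DMSO, 49.5, 55.5 and 49.8 RPKM at AA 2wk, and 40.4, 37.1 and 44.5 RPKM at AA 4wk. In fl/fl it was at 64.2, 58.3 and 68.5 RPKM in DMSO, 53.1, 50.7 and 56.3 RPKM at AA 2wk, and 44.5, 45.3 and 47.1 RPKM at AA 4wk. The AA 4wk difference in PTKO was -0.73 ± 0.08 (adjusted p = 3.13e-06), and no AA library reached the DMSO range. Mrps21, the S21 protein, was at 119, 117 and 122 RPKM in PTKO DMSO, 89.4 to 107 RPKM at AA 2wk, and 75.3, 75.4 and 74.5 RPKM at AA 4wk, a difference of -0.66 ± 0.09 (adjusted p = 1.27e-05) at AA 4wk. Mrps31, a mitochondria-specific protein, was at 20.4, 26.3 and 21.2 RPKM in PTKO DMSO and 15.4, 15.9 and 15.7 RPKM at AA 2wk, with 14.1, 13.5 and 14.1 RPKM at AA 4wk. The AA 2wk difference of Mrps31 in PTKO was -0.50 ± 0.11 (adjusted p = 0.00178), and the AA 4wk difference in fl/fl was -0.61 ± 0.11 (adjusted p = 0.000277). Mrps5, the S5 protein, fell by 0.56 ± 0.07 on the log2 scale at AA 4wk in fl/fl (adjusted p = 1.83e-05), with 16.4, 16.8 and 19.1 RPKM, against 26.6, 25.4 and 26.3 RPKM in DMSO.

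Mrps36, the 2-oxoglutarate dehydrogenase component, moved with the ribosomal proteins. In PTKO it was at 16.4, 15.3 and 19.4 RPKM in DMSO, 11.5, 12.4 and 14.2 RPKM at AA 2wk, and 11.5, 11.6 and 12.8 RPKM at AA 4wk. The fl/fl values were 17.2, 20.9 and 19.0 RPKM in DMSO, 14.3, 11.7 and 15.8 RPKM at AA 2wk, and 11.8, 11.2 and 10.4 RPKM at AA 4wk. The groups did not overlap with DMSO in either genotype. In PTKO the differences from DMSO were -0.40 ± 0.12 (adjusted p = 0.00904) at AA 2wk and -0.47 ± 0.12 (adjusted p = 0.00212) at AA 4wk, the first of them not called without PTKO DMSO number 3 (-0.30, adjusted p = 0.0523), and in fl/fl at -0.43 ± 0.12 (adjusted p = 0.00541) and -0.71 ± 0.12 (adjusted p = 9.53e-05). Leaving Mrps36 out took 1 from each count of members lower and left the members higher as they were.

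Higher with AA in all 4 effects were Mrpl33 and Mrpl52, both of the large subunit, beside 38.1% of all genes. Mrpl33, the L33 protein, was at 32.1, 32.5 and 38.1 RPKM in PTKO DMSO, 87.6, 107 and 78.2 RPKM at AA 2wk, and 63.2, 63.1 and 75 RPKM at AA 4wk. In fl/fl it was at 37.0, 40.3 and 41.5 RPKM in DMSO, 80.0, 94.2 and 80.8 RPKM at AA 2wk, and 73.3, 67.6 and 74.1 RPKM at AA 4wk. Every AA library lay above every DMSO library, and the AA 2wk libraries lay above those of AA 4wk within each genotype. In PTKO it rose by 1.37 ± 0.11 (adjusted p = 6.16e-07) at AA 2wk and 0.95 ± 0.11 (adjusted p = 4.91e-06) at AA 4wk, and in fl/fl by 1.08 ± 0.11 (adjusted p = 4.09e-06) and 0.84 ± 0.11 (adjusted p = 1.94e-05). These rises exceeded the all-gene median by 0.49 to 1.08, and all 4 calls were kept in each of the 27 alternative settings run. Mrpl33 had 186 to 755 reads per library, and the length used for it was 466 bases. The processed transcript Gm43809 on the same strand shares 261 exon bases with it, 3.6% of its 7326 annotated exon bases. Which bases make up the 466 used is not given, so the overlapping share of the length used is not known. The part of Gm43809 reads in Mrpl33 was not tested.

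Mrpl52, specific to mitochondria, was at 61.4, 60.6 and 66.5 RPKM in PTKO DMSO, 92.1, 116 and 81.2 RPKM at AA 2wk, and 87.2, 90.0 and 93.7 RPKM at AA 4wk. The values in fl/fl were 60.5, 56.0 and 55.2 RPKM in DMSO, 95.0, 106 and 111 RPKM at AA 2wk, and 91.0, 76 and 90.9 RPKM at AA 4wk. The AA libraries all lay above DMSO. In PTKO it rose by 0.59 ± 0.11 (adjusted p = 0.000477) at AA 2wk and 0.52 ± 0.11 (adjusted p = 0.00082) at AA 4wk, and in fl/fl by 0.85 ± 0.11 (adjusted p = 2.77e-05) and 0.57 ± 0.11 (adjusted p = 0.000434). With size factors the call held at AA 2wk in fl/fl (0.45, adjusted p = 0.00493) and was lost in PTKO at AA 2wk (0.25, adjusted p = 0.0828) and AA 4wk (0.05, adjusted p = 0.734) and in fl/fl at AA 4wk (0.15, adjusted p = 0.297). The annotated neighbour Mmp14, a matrix metalloproteinase gene, rose by 2.29 to 3.66 in the same effects, and whether its reads reach Mrpl52 was not tested.

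Mrps6, the S6 protein, was called higher in fl/fl. It had 51.7, 77.5 and 52.4 RPKM in DMSO there, 149, 63.5 and 135 RPKM at AA 2wk, and 104, 115 and 117 RPKM at AA 4wk. The PTKO libraries had 60.2, 59.4 and 67.8 RPKM in DMSO, 76 RPKM, 72.3 RPKM and 92.3 RPKM at AA 2wk, and 64.9, 92.8 and 112 RPKM at AA 4wk. In fl/fl the groups overlapped at AA 2wk through library 2 and did not at AA 4wk, with differences of 0.86 ± 0.27 (adjusted p = 0.0118) and 0.90 ± 0.27 (adjusted p = 0.00804). Both calls were lost with size factors (0.46, adjusted p = 0.16, and 0.47, adjusted p = 0.141), and the first also without fl/fl AA 2wk number 1 (0.63, adjusted p = 0.0677) and in a fit of its 2 groups alone (adjusted p = 0.0753). Mrps6 shares 159 exon bases on the same strand with Slc5a3, a myo-inositol transporter gene, which had 31.8, 6.73 and 17.8 RPKM in fl/fl AA 2wk and 8.15, 19.1 and 7.23 RPKM in fl/fl DMSO. Library 2 was the lowest of fl/fl AA 2wk and the highest of fl/fl DMSO for both genes. The annotated protein-coding gene Gm49711, on the same strand, shares 305 exon bases with Mrps6 and is not among the deposited genes. With these overlaps the value of Mrps6 is uncertain, and the part of Slc5a3 or Gm49711 reads in it was not tested.

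Mrps25, a mitochondria-specific small-subunit protein, was higher at AA 2wk, with 6.41, 6.98 and 5.47 RPKM in PTKO AA 2wk, against 4.28, 4.26 and 4.74 RPKM in PTKO DMSO (0.42 ± 0.10, adjusted p = 0.00184). In fl/fl it had 6.37, 6.57 and 7.48 RPKM at AA 2wk, against 5.09, 5.45 and 4.72 RPKM in DMSO (0.36 ± 0.10, adjusted p = 0.00489). The groups did not overlap in either genotype, but neither call held with size factors (0.13 in PTKO and 0.01 in fl/fl), and the sign turned with quantile normalization (-0.02 in PTKO and -0.14 in fl/fl). Nr2c2, a nuclear receptor gene on the opposite strand, covers 69.8% of the exon bases of Mrps25, so its reads cannot be assigned with certainty. A further 6 members, Mrpl54, Mrps23, Mrps18b, Mrps18c, Mrpl19 and Mrpl17, were called higher at AA 2wk in fl/fl and not in the other 3 effects. Their values at AA 2wk in PTKO were 0.03 to 0.35, and the interaction was called for none of them (adjusted p = 0.938 to 0.982). In PTKO, Mrps18b (0.35, adjusted p = 0.0569) and Mrps18c (0.25, adjusted p = 0.101) were called with array quality weights, which give each library a weight by its scatter (0.43, adjusted p = 0.00378, and 0.27, adjusted p = 0.0253). None of these 6 was called higher with size factors, and with quantiles Mrpl54 was (0.22, adjusted p = 0.0318) and the other 5 were not.

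The Mrps18 paralogs sit at different places in the ribosome, and their values differed. Mrps18c, closest to bacterial S18, was at 35.3, 43.6 and 44.9 RPKM in fl/fl AA 2wk, against 27.3, 28.6 and 36.2 RPKM in fl/fl DMSO, groups that overlapped (0.42 ± 0.13, adjusted p = 0.00983, and 0.34 without fl/fl DMSO number 1, adjusted p = 0.0513). Mrps18b was at 18.9, 23.3 and 22.3 RPKM in fl/fl AA 2wk, against 15.3, 12.1 and 17.4 RPKM in fl/fl DMSO, with no overlap (0.51 ± 0.15, adjusted p = 0.00873). Neither rise was called with size factors (0.03 for Mrps18c and 0.12 for Mrps18b), with quantiles (0.25 and 0.19) or with array quality weights (0.11, adjusted p = 0.508, for Mrps18c and 0.33, adjusted p = 0.1, for Mrps18b). Mrps18a, in the large subunit, was at 50 to 62.7 RPKM in PTKO AA 4wk, against 75.7, 74.5 and 74.2 RPKM in PTKO DMSO, with no overlap (-0.46 ± 0.11, adjusted p = 0.00175). For Mrps18a the other 3 effects were -0.20 at AA 2wk in PTKO (adjusted p = 0.128, but 0.00417 with array quality weights), -0.06 at AA 2wk in fl/fl (adjusted p = 0.675) and -0.24 at AA 4wk in fl/fl (adjusted p = 0.0627). An antisense gene covers 30.5% of Mrps18b exon bases, and an unconfirmed gene 23.2% of those of Mrps18c. Mrps30, the other large-subunit protein with a small-subunit name, was at 19.9, 19.7 and 19.4 RPKM in PTKO AA 4wk, against 24.1, 23.9 and 22.4 RPKM in PTKO DMSO (-0.24 ± 0.08, adjusted p = 0.00874). In the other effects Mrps30 gave -0.16 (PTKO AA 2wk, adjusted p = 0.0831), 0.01 (fl/fl AA 2wk, but -0.37 with size factors, adjusted p = 0.00177, and -0.24 with quantiles, adjusted p = 0.00642) and -0.10 (fl/fl AA 4wk, adjusted p = 0.256).

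More genes were lower than higher in both subunits, by little at AA 2wk in fl/fl. Of 49 tested large-subunit genes, 12 were lower at AA 2wk and 32 at AA 4wk in PTKO, and 9 and 17 in fl/fl, while 2 and 2 were higher in PTKO and 5 and 2 in fl/fl. Of 26 small-subunit genes, 8 and 15 were lower in PTKO, and 6 and 9 in fl/fl, while 1 and 0 were higher in PTKO and 5 and 1 in fl/fl. The shares over all genes are those given above. Large-subunit medians were -0.12 and -0.33 in PTKO and -0.04 and -0.17 in fl/fl. Small-subunit medians were -0.11 and -0.30 in PTKO and -0.02 and -0.17 in fl/fl. Genes with a bacterial counterpart had 12 and 27 of 45 lower in PTKO and 9 and 14 in fl/fl, and 1 and 1 higher in PTKO and 5 and 2 in fl/fl, with medians of -0.08, -0.30, -0.01 and -0.16. Genes specific to mitochondria had 8 and 20 of 30 lower in PTKO and 6 and 12 in fl/fl, and 2 and 1 higher in PTKO and 5 and 1 in fl/fl, with medians of -0.15, -0.35, -0.03 and -0.19. The difference between these classes was not tested.

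An exon overlap with another annotated gene was found for 32 members, 23 of them with a protein-coding gene. Of the 44 tested members without such an overlap, 15 and 29 were lower in PTKO at AA 2wk and AA 4wk, and 11 and 19 in fl/fl, with medians of -0.16, -0.36, -0.05 and -0.22. Their counts of members higher were 1 and 1 in PTKO and 4 and 1 in fl/fl. All-gene shares are again those given above. The lower calls thus stood in members with no annotated overlap too. Mrpl50, Mrpl52 and Mrpl4 belong to those without overlap.

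In none of the 4 AA effects were 18 members called, beside 17.1% of all genes. They are Mrpl3, Mrpl11, Mrpl14, Mrpl15, Mrpl21, Mrpl24, Mrpl36, Mrpl40, Mrpl43, Mrpl45, Mrpl47 and Mrpl57 of the large subunit, and Mrps10, Mrps14, Mrps15, Mrps16, Mrps17 and Mrps33 of the small one. With size factors 3 members were left uncalled in all 4 effects, and 9 with quantiles. In all, 48 members were lower in at least 1 effect, beside 19.8% of all genes, and 10 were higher in at least 1, beside 63.2%. None was higher in one effect and lower in another, beside 0.169% of all genes.

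The remodeling contrast, AA 4wk against AA 2wk, asks what changed in the 2 weeks after the toxin. In PTKO, 7 of 76 members were lower and 0 higher, where 1.56% of all genes were lower and 2.6% higher. The median was -0.19, beside 0.10 over all genes, and 72 members were below 0. For 33 members all PTKO AA 4wk libraries lay below all PTKO AA 2wk libraries, beside 8.52% of all genes. In fl/fl, 0 members were called in either direction by limma, where 0.125% of all genes were called, and 19 had an unadjusted p under 0.05. The fl/fl median was -0.14, beside 0.01 over all genes, with 71 members below 0, and 28 members did not overlap, all of them lower, beside 10.4% of all genes. With voom on the recovered reads the count in fl/fl was also 0, and with array quality weights 23 members were lower. These weights called 1999 of all 13624 genes lower and 1576 higher in this contrast.

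Among the 7 members lower in PTKO, Mrpl50 gave -0.46 ± 0.10 (adjusted p = 0.0275) with the values above. Mrpl20, the L20 protein of early large-subunit assembly in bacteria, was at 76.4, 66.9 and 70.7 RPKM in PTKO AA 4wk, against 92.6, 97.7 and 95.6 RPKM in PTKO AA 2wk (-0.41 ± 0.09, adjusted p = 0.0267). Mrps21 gave -0.39 ± 0.09 (adjusted p = 0.0309), and Mrpl33, still above DMSO, gave -0.42 ± 0.11 (adjusted p = 0.0495). Mrpl27, the L27 protein at the peptidyl transferase centre, was at 20.2, 17.3 and 19.7 RPKM in PTKO AA 4wk, against 25.5, 24.3 and 24.6 RPKM in PTKO AA 2wk (-0.37 ± 0.10, adjusted p = 0.0484). None of these 5 overlapped. Same-numbered libraries of these 2 groups deviated together weakly (r = 0.101 to 0.243), and no label pairs them. With the replicate number as a block 15 members were lower, whereas in a fit of these 2 groups alone none was, with or without the block. Over all genes the block gave 544 lower and 1026 higher, against 213 and 354 without it. The count without PTKO AA 2wk number 2, PTKO AA 4wk number 2 or PTKO AA 4wk number 3 was 0, and it was 1 without PTKO AA 2wk number 3 or PTKO AA 4wk number 1. It was 16 when fl/fl AA 2wk number 3 was left out, 4 without PTKO DMSO number 2, and 3 without each of fl/fl DMSO number 1, PTKO DMSO number 1, PTKO DMSO number 3 and the 3 fl/fl AA 4wk libraries.

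No member was called between the genotypes at any stage in the fit with equal weights. With array quality weights 4 members were called lower in PTKO in AA 2wk cortex and 4 in AA 4wk cortex. With these weights 1055 of 13624 genes were lower and 571 higher in AA 2wk cortex, and 456 lower and 163 higher in AA 4wk cortex. Leaving out both AA 2wk libraries numbered 3 gave 1 call, in AA 4wk cortex, where 156 of 13591 genes were lower and 41 higher. The median difference of PTKO from fl/fl was 0.00 in DMSO, -0.07 in AA 2wk cortex and -0.13 in AA 4wk cortex, with 64 of 76 members below 0 at AA 2wk and 71 at AA 4wk. Over all genes 0.0367%, 0.00734% and 0.00734% were called by limma with equal weights, and voom called 0 members too. Members with an unadjusted p under 0.05 numbered 1 in DMSO, 4 in AA 2wk cortex and 10 in AA 4wk cortex. All PTKO libraries lay below all fl/fl libraries for 1, 5 and 15 members at the 3 stages, beside 5.77%, 4.74% and 9.73% of all genes, and above them for 5, 0 and 0, beside 7.88%, 1.95% and 14.1%.

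The members with the smallest p had these values. In DMSO Mrps5 was at 22.8, 22.8 and 22.9 RPKM in PTKO, against 26.6, 25.4 and 26.3 RPKM in fl/fl (-0.19 ± 0.07, adjusted p = 0.924), without overlap. Mrpl33 gave -0.21 and Mrpl28 0.16 in DMSO (adjusted p = 1 for both). At AA 2wk Mrps9 was at 21.2, 19.6 and 21.7 RPKM in PTKO, against 22.3, 22.6 and 27.9 RPKM in fl/fl (-0.20 ± 0.08, adjusted p = 0.67). Mrps10 gave -0.33 ± 0.14 (adjusted p = 0.698) and Mrps31 -0.25 ± 0.11 (adjusted p = 0.733), and both were called with array quality weights (adjusted p = 0.034 and 0.0252). At AA 4wk Mrpl27 was at 20.2, 17.3 and 19.7 RPKM in PTKO, against 23.4, 21.9 and 25.8 RPKM in fl/fl (-0.30 ± 0.10, adjusted p = 0.812). Mrps24 was at 37.3, 33.0 and 41.8 RPKM in PTKO, against 44.2, 44.4 and 45.5 RPKM in fl/fl (-0.26 ± 0.09, adjusted p = 0.812). Mrps35 was at 28.8, 27.9 and 32.3 RPKM in PTKO, against 36.9, 35.5 and 40.1 RPKM in fl/fl (-0.33 ± 0.12, adjusted p = 0.812). Each of these 3 was lower in all PTKO libraries and not called. With array quality weights all 3 were called (adjusted p = 0.0249 for Mrpl27, 0.0287 for Mrps24 and 0.0232 for Mrps35), and Mrps35 was also called without both AA 2wk libraries numbered 3 (adjusted p = 0.0428).

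Whether AA acted differently in the genotypes was tested by the interaction, the AA effect in PTKO minus that in fl/fl. It called 0 members at AA 2wk (median -0.09, 57 below 0, 1 with an unadjusted p under 0.05) and 0 at AA 4wk (median -0.14, 66 below 0, 4 with an unadjusted p under 0.05), by limma and by voom alike. Over all genes 0.0147% and 0.00734% were called. The smallest p at AA 2wk belonged to Mrps28 (-0.32 ± 0.14, adjusted p = 0.913), Mrpl46 (-0.30 ± 0.15, adjusted p = 0.936) and Mrpl33 (0.29 ± 0.16, adjusted p = 0.938). At AA 4wk it belonged to Mrpl28 (-0.37 ± 0.13), Mrps28 (-0.33 ± 0.14) and Mrpl38 (-0.27 ± 0.11), each with an adjusted p of 0.934. The larger number of members lower in PTKO at AA 4wk, 48 against 27 in fl/fl, was matched by no called interaction for any member. Macrophage marker sums were 2952 to 4197 RPKM in PTKO AA 4wk, against 1826 to 2794 RPKM in fl/fl AA 4wk, and proximal tubule sums 887 to 1463, against 1830 to 2073. The part of these in the genotype differences was not tested.

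The other genes of mitochondrial translation were read from lists chosen with earlier results known. Ribosomal proteins of the mitochondrion not named Mrp number 6. Dap3, a GTP-binding protein of the small subunit, was lower in all 4 effects, at -0.26 ± 0.08 and -0.39 ± 0.08 in PTKO and -0.26 ± 0.08 and -0.27 ± 0.08 in fl/fl. Ptcd3, also of the small subunit, was lower in all 4 too, from -0.21 ± 0.08 at AA 2wk in fl/fl to -0.40 ± 0.08 at AA 4wk in PTKO. Ict1, listed under this older name of Mrpl58 and known to release stalled ribosomes, was lower at AA 4wk, with -0.43 ± 0.08 (adjusted p = 0.000533) in PTKO and -0.22 ± 0.08 (adjusted p = 0.0432) in fl/fl. Chchd1 was higher at AA 2wk, by 0.32 ± 0.12 (adjusted p = 0.0317) in PTKO and 0.54 ± 0.12 (adjusted p = 0.00136) in fl/fl, and both calls were lost with size factors (-0.02 in PTKO and 0.15 in fl/fl). Gadd45gip1 was lower at AA 4wk in PTKO (-0.28 ± 0.10, adjusted p = 0.0294), and Aurkaip1 was not called.

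The factors that work on the ribosome leaned down as well. Of 16 translation factors, 8 and 11 were lower in PTKO and 9 and 13 in fl/fl at AA 2wk and AA 4wk, and 0 were higher. Over all genes 14.3% and 17.3% were lower in PTKO and 12.2% and 14.3% in fl/fl. Gfm1, the elongation factor that moves the ribosome along the mRNA, fell by 0.71 ± 0.12 and 1.24 ± 0.12 on the log2 scale in PTKO, and by 0.62 ± 0.12 and 0.97 ± 0.12 in fl/fl. Gfm2, which recycles ribosomes, fell by 0.72 ± 0.08 and 0.87 ± 0.08 in PTKO, and by 0.70 ± 0.08 and 0.85 ± 0.08 in fl/fl. Of 17 mitochondrial tRNA synthetases, 9 and 10 were lower in PTKO and 7 and 8 in fl/fl, beside the same shares of all genes. The arginine enzyme Rars2 was lower, at -0.72 ± 0.08 and -0.97 ± 0.08 in PTKO and -0.63 ± 0.08 and -0.84 ± 0.08 in fl/fl. Lars2, the leucine enzyme, was the 1 synthetase called higher, at AA 4wk in fl/fl (1.0 ± 0.31, adjusted p = 0.0116), and was not called with size factors (0.57, adjusted p = 0.148).

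Of 25 assembly and rRNA modification genes, 8 and 9 were lower in PTKO and 8 and 7 in fl/fl. Over all genes these shares were 14.3% and 17.3% in PTKO and 12.2% and 14.3% in fl/fl. Rpusd3, a pseudouridine synthase family protein, fell by 0.79 ± 0.19 and 1.12 ± 0.19 in PTKO and by 0.62 ± 0.19 and 0.49 ± 0.19 in fl/fl. Fastkd2, an RNA-binding protein of large-subunit assembly, was lower at AA 4wk, at -0.65 ± 0.10 in PTKO and -0.62 ± 0.10 in fl/fl. Calls upward were Mettl17 at AA 4wk in PTKO (0.37 ± 0.14), and Trub2 (0.25 ± 0.09) and Ddx28 (0.25 ± 0.10) at AA 4wk in fl/fl, and all 3 had negative values with size factors (-0.06, -0.11 and -0.13) and with quantiles (-0.17, -0.33 and -0.26). Of 14 genes of mitochondrial DNA maintenance and transcription, 7 and 10 were lower in PTKO and 6 and 7 in fl/fl, beside the same shares of all genes. The lower genes of this list include Peo1, the Twinkle helicase, at -0.57 ± 0.08 and -0.61 ± 0.08 in PTKO. Tfam, the packaging protein of mitochondrial DNA, gave -0.36 ± 0.13 (adjusted p = 0.034) and -0.43 ± 0.13 (adjusted p = 0.0108) in PTKO, and -0.05 ± 0.13 (adjusted p = 0.773) and -0.25 ± 0.13 (adjusted p = 0.119) in fl/fl, and was lower in all 4 effects with size factors and with quantiles. Elac2 at AA 2wk in fl/fl (0.24 ± 0.07) and Polg at AA 4wk in PTKO (0.27 ± 0.10) were called higher as deposited, and had negative values with size factors (-0.13 and -0.17) and quantiles (-0.16 and -0.22).

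Regulators of mitochondrial biogenesis did not lean the same way as deposited. Of 11, 7 were higher and 2 lower in each of the 4 effects. Over all genes 45.9% to 55% were higher and 12.2% to 17.3% lower, so these regulators leaned upward as all genes did. With size factors 2 or 3 of the 11 were higher and 3 or 4 lower, so the balance rests on the scale. Myc, which drives ribosome production, rose by 2.60 ± 0.34 and 2.68 ± 0.34 in PTKO and by 2.81 ± 0.34 and 2.63 ± 0.34 in fl/fl. Pprc1, a coactivator of the PGC-1 family, rose by 1.27 ± 0.18 and 1.54 ± 0.18 in PTKO and by 1.12 ± 0.18 and 1.18 ± 0.18 in fl/fl. Its relative Ppargc1b was lower, at -0.70 ± 0.15 and -0.40 ± 0.15 in PTKO and -0.53 ± 0.15 and -0.40 ± 0.15 in fl/fl. The nuclear receptor Esrra was lower, at -0.36 ± 0.13 and -0.60 ± 0.13 in PTKO, and at -0.36 ± 0.13 in both fl/fl effects. Nrf1, whose motif stands in 13 member windows, was higher by 0.44 ± 0.11 and 0.52 ± 0.11 in PTKO and by 0.42 ± 0.11 and 0.50 ± 0.11 in fl/fl as deposited. It was not called with size factors (0.09 to 0.16) and had the other sign with quantiles (-0.17 to -0.04). Ppargc1a and Gabpa were not called in any effect.

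The oxidative phosphorylation complexes, whose mitochondrially encoded subunits the ribosome makes, had lower medians than the members as deposited and with size factors, and higher ones with quantile normalization. Nuclear genes listed under complex I, 36 tested, had 16 and 34 lower in PTKO and 7 and 18 in fl/fl, with medians of -0.29, -0.67, -0.14 and -0.32. Genes listed under complexes II to V, 45 tested, had 15 and 38 lower in PTKO and 10 and 21 in fl/fl, with medians of -0.26, -0.64, -0.17 and -0.24. Over all genes 14.3% and 17.3% were lower in PTKO and 12.2% and 14.3% in fl/fl, and the all-gene counts with quantiles are given above. With quantiles the complex I medians were -0.17 and -0.48 in PTKO and -0.0064 and -0.15 in fl/fl, with 9 and 26 lower in PTKO and 3 and 7 in fl/fl. Those of complexes II to V were -0.11 and -0.34 in PTKO and -0.0072 and -0.05 in fl/fl, against -0.25, -0.54, -0.24 and -0.36 for the members. The difference between these lists was not tested. Called higher were, in the first list, Ndufa4l2 at AA 4wk in both genotypes, and in the second list Cox6b2, a testis isoform, in all 4 effects, Cox7a2l, Sdhaf2 and Cox4i2. A gene in these lists need not encode a subunit of its complex. Cytosolic ribosomal proteins went the other way: of 72 tested, 49 and 48 were higher in PTKO and 51 and 44 in fl/fl, with medians of 0.59, 0.58, 0.60 and 0.52. Over all genes 45.9% and 55% were higher in PTKO and 50.4% and 51.9% in fl/fl. With size factors 27 and 18 cytosolic genes were higher in PTKO and 31 and 13 in fl/fl. Of all 13624 genes 3642 and 4482 were then higher in PTKO, and 3800 and 4083 in fl/fl. With quantiles 39 and 36 cytosolic genes were higher in PTKO and 40 and 29 in fl/fl. Of all genes 3305 and 3985, and 3285 and 3583, were higher on that scale. More cytosolic genes were thus higher than lower on each scale. With size factors at AA 4wk, however, their share called higher was below that of all genes in both genotypes. Rpl3l, a muscle paralog, was the 1 cytosolic gene lower in each effect as deposited. The share of summed RPKM taken by cytosolic ribosomal proteins was 1.16% to 1.70% in AA libraries, against 0.782% to 0.899% in DMSO. The members' own share, given above, lay wholly below DMSO in PTKO AA 4wk only. Macrophage, T cell and cycling-cell markers were higher in the same AA libraries. Their part in the opposite median shifts of members and cytosolic genes was not tested.

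**Figure D5:**
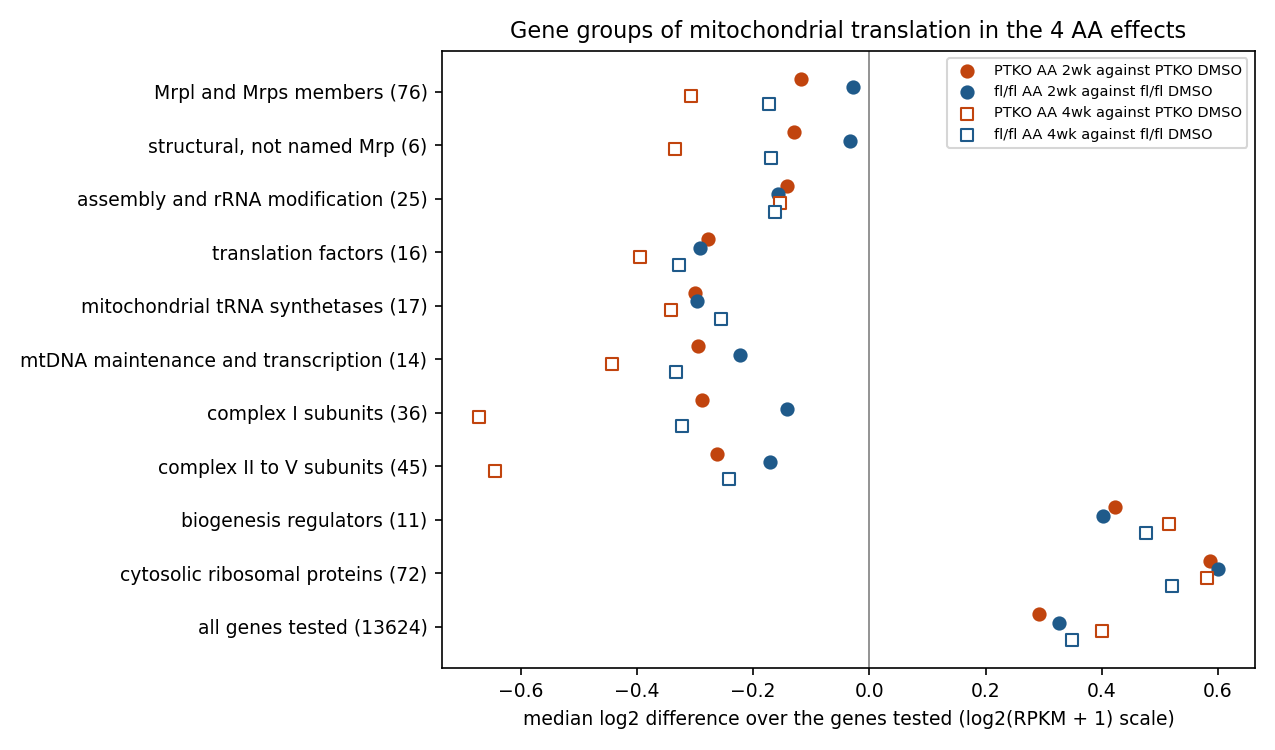
Median log2 difference from DMSO over the tested genes of each group in the 4 AA effects, with the median of all tested genes for comparison. The mitochondrial groups lie left of 0 and the cytosolic ribosomal proteins and biogenesis regulators to its right, as deposited.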

How the data were processed

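Total RNA of perfused kidney cortex was sequenced in 18 libraries, 3 in each of 6 groups, after TruSeq Stranded Total RNA preparation, per the labels' protocols. The authors deposited RPKM values (read density per transcript length and library depth) in 1 table of 24062 genes, per the file headers. The submitters' processing notes name bcl2fastq 2.19, kallisto and build mm10. The sources used here do not give how reads were assigned to genes, the annotation or the use of strand. Samples were grouped by their titles.

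The 13624 genes that reached 1 RPKM in 3 or more libraries were fitted on log2(RPKM + 1) with limma 3.58.1 (statmod 1.5.0, R 4.3.3), as 6 group means, with robust empirical Bayes moderation along an intensity trend. The fit gave 11 two-sided comparisons, adjusted by the Benjamini-Hochberg method over all genes and called at an adjusted p under 0.05. With 3 libraries a group, the smallest p of an exact permutation test is 0.1. Values with ± are log2 differences with SE, or RPKM means with SD over 3 libraries. The steps were tested on simulated data.

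Whole reads were recovered from the RPKM steps for all 17579 genes that were above 0 in 6 or more libraries (100%, tolerance 0.02 reads), and these reads served for voom as an alternative. Reads per member and library run from 0 for Mrpl23 to 3965 for Mrpl12, so the precision of the low members is limited by counting.

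Same-numbered libraries deviated together with r over 0.1 in every pair only for PTKO AA 2wk and fl/fl AA 2wk (r = 0.431 to 0.663 across genes) and for PTKO AA 4wk and PTKO AA 2wk (0.101 to 0.243), as found from the data and not from the labels. Correlations were weaker but positive in every pair between the genotypes in DMSO (0.071 to 0.201) and at AA 4wk (0.057 to 0.222).

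The members and all gene lists were chosen with earlier results of these data known. Named were the 5 highest and 5 lowest members, up to 5 called members each way per AA effect and remodeling contrast, the called or 3 smallest-p members per genotype contrast and interaction, Mrpl12, Mrps36, Mrps30, Mrpl58 and the Mrps18 paralogs, and per list the 2 largest called rises and falls in fl/fl. Of the genes named by this rule, 1 is not reported here. Mrpl10, Tfam, Nrf1, Ptcd3, Gadd45gip1, Aurkaip1, Ppargc1a, Gabpa, Mmp14 and the exceptions named within lists were chosen after their values were seen. Annotation and exon overlaps come from GENCODE M21, and promoters from RefSeq (GRCm38.p6). Figures were drawn with matplotlib 3.10.9.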

Additional observations from a re-analysis of the deposited data

How the results depend on the processing

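Across 28 other settings, 28 of the 42 calls of named members held in each setting run, and 17 of 1871 recomputed values of named members changed sign. Median-of-ratios size factors gave, higher and lower, 2 and 56 members (median -0.41) for AA 2wk in fl/fl, 1 and 59 (-0.46) for AA 2wk in PTKO, 1 and 66 (-0.59) for AA 4wk in fl/fl, and 1 higher (-0.77) for AA 4wk in PTKO, with a median of -0.32 for AA 4wk against AA 2wk in PTKO. Quantile normalization gave 4 and 36 (-0.24), 35 lower (-0.25), 58 lower (-0.36) and a median of -0.54 in the same order, and 19 lower in the PTKO remodeling contrast. All-gene counts for the AA effects on both scales are given above. In PTKO remodeling quantiles called 590 genes lower. A fit of the compared groups alone gave 6 and 9 for AA 2wk in fl/fl and 0 for PTKO remodeling. The replicate block gave 6 higher for AA 2wk in PTKO and 15 lower for PTKO remodeling, or 0 in its 2 groups alone (this fit was added after the data were seen). Array weights gave 8 higher for AA 2wk and 4 for AA 4wk in PTKO, 23 and 22 lower in the remodeling contrasts of fl/fl and PTKO, and 4 and 4 called between genotypes at AA 2wk and AA 4wk. Over all 13624 genes, array weights called 8062 and 8352 higher in these PTKO effects, and 1999 and 834 lower in these remodeling contrasts. Between genotypes they called 1055 and 456 genes lower at AA 2wk and AA 4wk. Without both AA 2wk libraries numbered 3, 7 were higher for AA 2wk in PTKO, 6 for AA 4wk in fl/fl and 1 was called between genotypes at AA 4wk. PTKO remodeling had 4 lower with a pseudocount of 0.1 and 2 with voom. Leaving out 1 library gave 9 to 23 lower for AA 2wk in fl/fl, 3 to 7 higher for AA 2wk in PTKO, 3 to 5 higher for AA 4wk in fl/fl and 0 to 16 lower for PTKO remodeling. The cause of these shifts was not tested.

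Sign changes were these. Mrps30 at AA 2wk in fl/fl (0.01) was called lower with size factors (-0.37) and quantiles (-0.24), and was -0.0032 with array weights, and -0.0296 to 0.0430 with 1 library left out. Mrps25 at AA 2wk in PTKO was called higher (0.42) and was -0.0172 with quantiles. Mrps18b was -0.20 and -0.12 at AA 4wk in fl/fl with size factors and quantiles, and at AA 4wk in PTKO -0.35 and -0.29 with these and -0.0311 to 0.2192 with 1 library left out. Mrps18c with size factors was -0.0888 at AA 2wk in PTKO and -0.24 at AA 4wk in fl/fl, and at AA 4wk in PTKO it was 0.0125 with array weights and -0.0698 to 0.0796 with 1 library left out.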
